A study of Arabidopsis thaliana with 4 samples.

Results

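Lipid-transfer-like genes of Arabidopsis thaliana were followed in roots of the wild type Col and of the coi1-2 mutant line, grown with and without aluminium (Al). The members were every locus whose gene name in the deposited tables held the words "Bifunctional inhibitor/lipid-transfer protein" or "lipid transfer protein", with the isoforms of a locus summed, and 80 of 23381 loci met that rule. The rule read names only and used no measured value. It took in 5 glycolipid transfer proteins, which share those words in their name and belong to a different protein family.

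Roots of seedlings 6 days old were collected for RNA sequencing, with about 500 seedlings named per exposure. There were 4 groups with 1 library each: untreated Col (0 µM AlCl3), Al-treated Col (10 µM AlCl3), untreated coi1-2 (0 µM AlCl3) and Al-treated coi1-2 (10 µM AlCl3), all in a nutrient solution at pH 5.0. coi1-2 is a single mutant line in COI1, the F-box protein of the jasmonate co-receptor, and no other allele or rescued line was sequenced here. The sample titles and the treatment notes give an Al exposure of 6 h while the series design gives 24 h, and the titles of the libraries without Al read 0 h. If those roots were taken at the start, the Al ratios also hold the time in solution, and the 2 cannot be told apart.

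Plant nonspecific lipid-transfer proteins are small secreted proteins in which conserved cysteines form disulfide bridges around a cavity that can hold a fatty acid or another lipid. They are known for carrying or presenting lipids in the cell wall, where some take part in the making of cutin, wax and suberin, and a subgroup (LTPG) is held at the outer face of the plasma membrane by a glycosylphosphatidylinositol anchor added at the C-terminal end. Hybrid proline-rich proteins carry the same cysteine pattern behind a proline-rich stretch, and DIR1, EARLI1 and AZI1 are known from defence signalling. Glycolipid transfer proteins fold differently and move sphingolipids inside the cell.

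The name was checked against the proteins translated from the RefSeq coding sequences (build TAIR10.1). The 8-cysteine pattern C-Xn-C-Xn-CC-Xn-CXC-Xn-C-Xn-C was found in 72 of the 80 members. The 8 without it were the 5 glycolipid transfer proteins and AT3G52130, AT4G22460 and AT5G59330, which held 3, 8 and 7 cysteines in all. The other members were grouped by what followed the motif and by the number of residues between the CC pair and the CXC triplet. A tail of at least 40 residues set the class first, whatever the gap, and 23 members had one, of 42 to 96 residues. Of the members without such a tail, 9 had the 19-residue gap of LTP1 and 25 had the 13- or 14-residue gap of the proline-rich proteins. Another 3 had a short gap of 8, and 12 were intermediate. The proline-rich-type class was named by its gap and not by its share of proline. In 18 of its 25 members the residues before the motif could be scored, with 20% to 56.1% proline. In the rest, AT4G22490, AT4G22513, AT4G22517 and AT4G22520 among them, that stretch was too short to score. The coding stretches that span the motif are shown for 4 members, with the cysteine codons in capitals. The 4 stand for the main classes and for both directions of response. AT3G22600 (LTPG5, C-terminal tail class) lies at chr3:8007083-8007316 on the minus strand, LTP2 (AT2G38530, 19-residue gap) at chr2:16128565-16128822 on the plus strand, AT4G12520 (13-residue gap, lower with Al) at chr4:7421285-7421533 on the minus strand and AT4G22490 (13-residue gap, higher with Al) at chr4:11849948-11850187 on the minus strand, each inside 1 coding exon and given 5′ to 3′.
AT3G22600: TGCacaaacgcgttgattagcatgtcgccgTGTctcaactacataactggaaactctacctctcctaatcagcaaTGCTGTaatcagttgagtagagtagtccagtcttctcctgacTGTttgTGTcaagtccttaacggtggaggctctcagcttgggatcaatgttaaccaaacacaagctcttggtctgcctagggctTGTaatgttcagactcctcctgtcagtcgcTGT
LTP2: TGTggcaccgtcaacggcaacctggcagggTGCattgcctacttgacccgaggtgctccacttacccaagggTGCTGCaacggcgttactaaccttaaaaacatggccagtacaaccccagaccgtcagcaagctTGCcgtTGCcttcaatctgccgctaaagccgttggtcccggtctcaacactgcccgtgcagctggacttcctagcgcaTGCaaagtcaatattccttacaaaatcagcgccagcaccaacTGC
AT4G12520: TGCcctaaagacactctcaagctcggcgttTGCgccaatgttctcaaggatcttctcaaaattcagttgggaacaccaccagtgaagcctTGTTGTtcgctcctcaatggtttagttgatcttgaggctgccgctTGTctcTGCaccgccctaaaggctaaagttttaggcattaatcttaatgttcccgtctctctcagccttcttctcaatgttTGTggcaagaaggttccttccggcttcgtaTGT
AT4G22490: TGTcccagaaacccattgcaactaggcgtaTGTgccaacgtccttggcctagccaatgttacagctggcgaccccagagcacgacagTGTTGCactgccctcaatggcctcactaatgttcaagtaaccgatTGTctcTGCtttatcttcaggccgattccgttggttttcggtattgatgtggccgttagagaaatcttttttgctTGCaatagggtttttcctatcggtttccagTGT

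The 4 libraries held between 6.93 M and 7.80 M uniquely mapped reads (M, mega). Levels are in RPKM (uniquely mapped reads scaled by transcript length and library total), so they can be set side by side between genes. A member was compared where it reached 1 RPKM in at least 1 library, and 62 of 80 did; the other 18 stayed at or below 0.709 RPKM in every library. Reads were found for 66 members in untreated Col, 77 in Al-treated Col, 72 in untreated coi1-2 and 69 in Al-treated coi1-2. With 1 library per group, a ratio between 2 libraries has no test: a member was called where RPKM + 0.5 differed 2-fold or more and the read ratio's 95% interval (exact, Clopper-Pearson) left out no change. That interval covers counting error only and leaves out the spread between preparations of the same group. PCR copies of 1 molecule are counted as separate reads, so it can be too narrow even for counting error. COI1 itself stood at 33.9, 19.6, 29.8 and 29.4 RPKM in untreated Col, Al-treated Col, untreated coi1-2 and Al-treated coi1-2, but the labels do not say what the mutation does to the transcript, so these levels do not check them. In whole roots, fewer cells of a type and less RNA per cell cannot be told apart.

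With Al the members together took a several times larger share of the root's reads, and most of that gain lay in the class with a C-terminal tail. The summed level of the 80 members was 3666 RPKM in untreated Col, 17329 in Al-treated Col, 3915 in untreated coi1-2 and 12168 in Al-treated coi1-2. They held 0.263%, 1.35%, 0.281% and 0.953% of all reads in the same order. Both Al libraries were above both libraries without Al. The C-terminal tail class summed to 1414, 14409, 1407 and 10003 RPKM, and 3 of its genes (AT3G22600, AT3G22620 and AT2G48130) made up 31.1%, 75.6%, 27.0% and 73.9% of the level of all members. The class with the LTP1 gap went from 460.0 RPKM in untreated Col and 509.8 in untreated coi1-2 to 1462 and 1253 with Al. The proline-rich-type class went the other way, from 1221 RPKM in untreated Col and 1422 in untreated coi1-2 to 623 and 281 with Al.

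**Figure D1:**
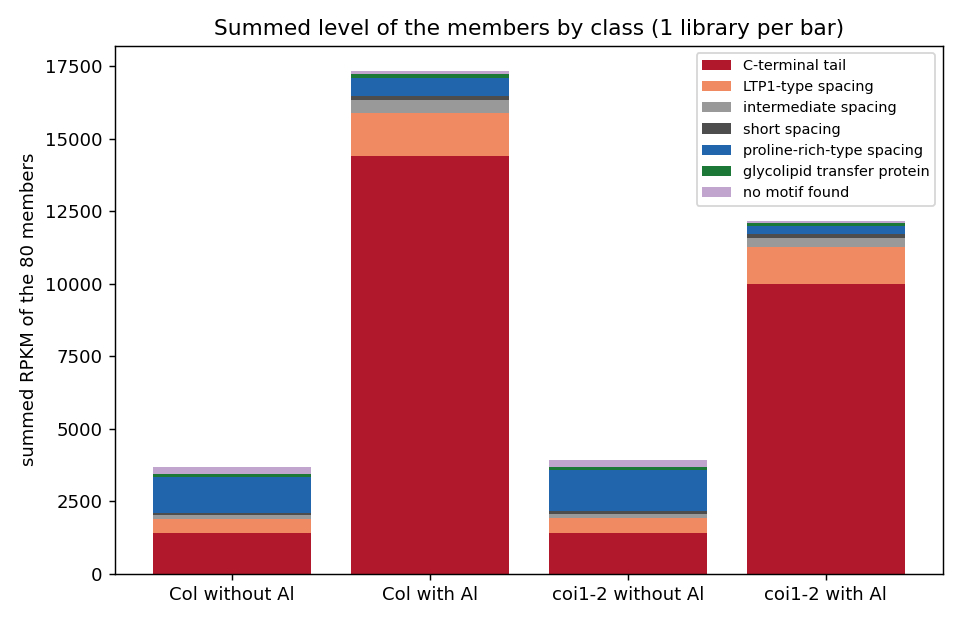
Summed level of the 80 members in RPKM in each of the 4 libraries, stacked by class. The Al libraries reach 17329 RPKM in Col and 12168 in coi1-2 against 3666 and 3915 without Al, and the C-terminal tail class fills most of both.

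The effect of Al over both genotypes was tested with edgeR's quasi-likelihood test on reads per locus, in a model with Al and genotype, TMM scaling and Benjamini-Hochberg adjustment over the 16477 loci tested. The model has 2 libraries per arm and 1 residual degree of freedom, to which edgeR added 161 prior degrees of freedom from all loci tested. The spread behind each p-value is therefore nearly all shared between loci and is not the gene's own. Since the labels name no separate cultures, the p-values measure only the spread that the additive model leaves between these libraries. Of the 80 members 56 were tested, with 33 higher and 11 lower under Al (adjusted p threshold 0.05); over all loci tested 25.5% were higher and 26.2% lower. The median log2 fold change was 1.56 for the members tested and -0.03 for all loci. Each SE printed with a fold change is its size divided by the square root of the test's F statistic. Members are short, with a median transcript of 689.5 bases against 1453 for all loci, and ratios with Al moved with transcript length: with that trend as an offset, 31 members rose and 15 fell (25.9% and 23.6% of all loci) and the members' median was 0.80. Of the calls, 31 rises and 11 falls stood in both fits. DESeq2 called 28 members higher and 5 lower. With 1 library left out and the genotype term dropped, 27 to 36 members rose and 7 to 14 fell; the count of falls was 7 without untreated coi1-2 and 7 without Al-treated coi1-2.

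**Figure D2:**
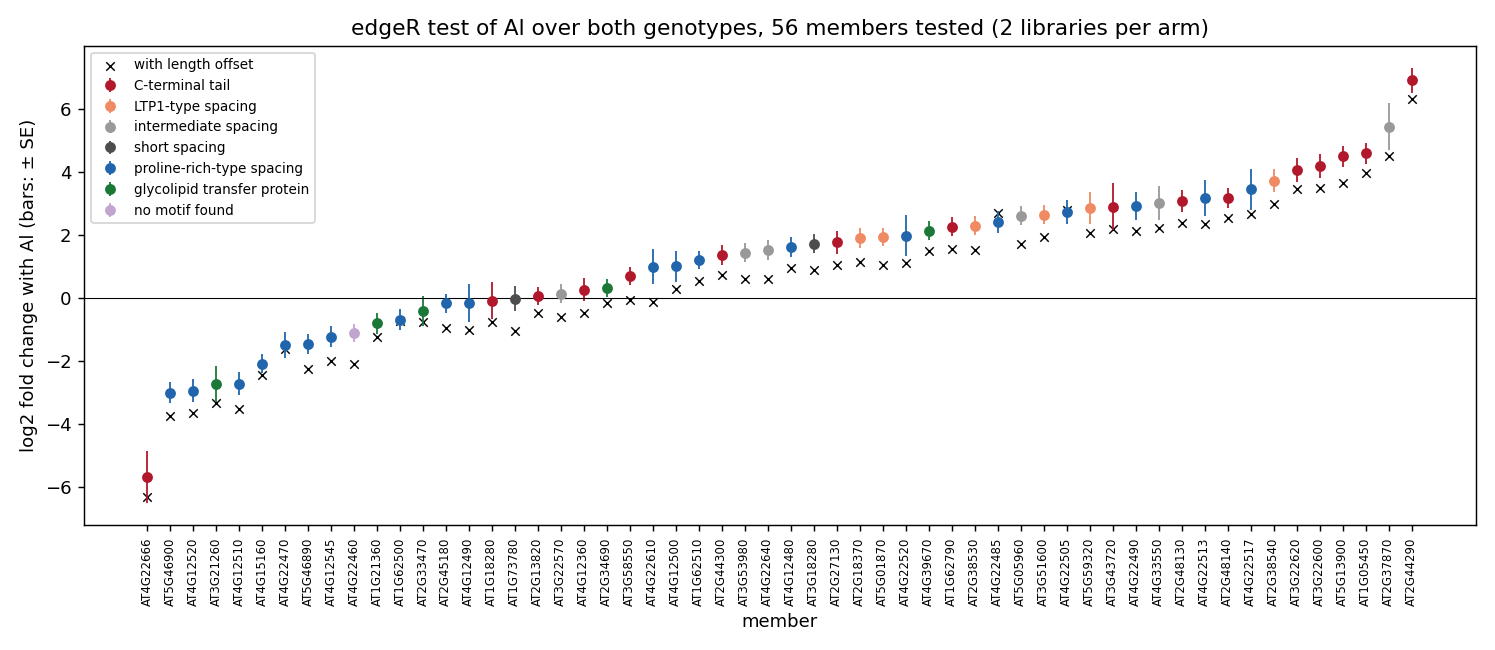
Log2 fold change with Al over both genotypes (vertical, edgeR, bars are ± SE) of the 56 tested members, sorted along the horizontal axis and coloured by class, with crosses for the fit with the length offset. The order runs from AT4G22666 at -5.67 to AT2G44290 at 6.90, and the 6 members with the LTP1 gap all lie above 0 in both fits.

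In the C-terminal tail class, 12 of the 16 tested members rose with Al and 1 fell, with a median log2 fold change of 2.57. LTPG5 (AT3G22600), named for a glycosylphosphatidylinositol-anchored lipid-transfer protein, stood at 376 RPKM in untreated Col, 5634 in Al-treated Col, 329.9 in untreated coi1-2 and 3516 in Al-treated coi1-2. Both Al libraries were several times as high as both without Al, and the gene moved from rank 292 of all loci in Col to rank 14. Its log2 fold change was 4.18 ± 0.38 (SE), edgeR adjusted p = 4.29e-19. The neighbouring gene AT3G22620, on the other strand, stood at 368 RPKM in untreated Col, 4636 in Al-treated Col, 329 in untreated coi1-2 and 3533 in Al-treated coi1-2. Its levels followed those of AT3G22600 in all 4 libraries, and its log2 fold change was 4.05 ± 0.38 (SE), edgeR adjusted p = 1.23e-18. AT2G48130 stood at 396 RPKM in untreated Col, 2835 in Al-treated Col, 399 in untreated coi1-2 and 1941 in Al-treated coi1-2. Again the Al libraries were above both others, with a log2 fold change of 3.08 ± 0.35 (SE), edgeR adjusted p = 5.66e-14. None of these calls was lost with a library left out or with the length offset.

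The largest edgeR fold change among the 56 tested members was that of AT2G44290, which had few reads without Al. It had 11 reads in untreated Col, 14 in untreated coi1-2, and 1201 and 787 with Al, or 1.59, 2.13, 196 and 124 RPKM in that order. Its log2 fold change was 6.90 ± 0.40 (SE), edgeR adjusted p = 3.78e-35. AT2G44300, its neighbour on the same strand with a coding sequence 88.7% identical, stood at 15.6 RPKM in untreated Col, 23.6 in Al-treated Col, 12.9 in untreated coi1-2 and 27.4 in Al-treated coi1-2. The near-copy therefore moved far less than AT2G44290, with a log2 fold change of 1.36 ± 0.31 (SE), edgeR adjusted p = 0.000118, and that call was lost without the untreated coi1-2 library (edgeR adjusted p = 0.105). Reads had to map uniquely, so reads common to both copies are missing from both. AT5G13900 stood at 31.4 RPKM in untreated Col, 564 in Al-treated Col, 28.0 in untreated coi1-2 and 381 in Al-treated coi1-2. Both Al libraries stood far above both without Al, and the log2 fold change was 4.48 ± 0.33 (SE), edgeR adjusted p = 9.22e-26. AT1G05450 stood at 7.94 RPKM in untreated Col, 147 in Al-treated Col, 9.64 in untreated coi1-2 and 149.8 in Al-treated coi1-2. Its level under Al was nearly equal in both genotypes, and its log2 fold change with Al was 4.59 ± 0.33 (SE), edgeR adjusted p = 1.78e-26.

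EDA4 (AT2G48140), which lies head to head with AT2G48130, stood at 9.14 RPKM in untreated Col, 88.4 in Al-treated Col, 12.4 in untreated coi1-2 and 51.5 in Al-treated coi1-2. It was high in the same libraries as its partner at a much lower level, with a log2 fold change of 3.17 ± 0.32 (SE), edgeR adjusted p = 3.23e-16. The 276 bases between both transcripts (chr2:19686057-19686332, plus strand, RefSeq TAIR10.1) are shown because both genes start from them, with the single ACGT in capitals; neither TTGAC (the W-box core) nor CACGTG (the G-box) is in them on either strand.
AT2G48130 to EDA4: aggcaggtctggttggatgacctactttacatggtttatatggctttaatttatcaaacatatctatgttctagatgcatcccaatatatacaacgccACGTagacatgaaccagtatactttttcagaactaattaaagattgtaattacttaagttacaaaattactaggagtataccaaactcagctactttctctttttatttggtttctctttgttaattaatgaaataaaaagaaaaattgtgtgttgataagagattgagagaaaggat
The single member of the class that fell was AT4G22666, with 43 reads in untreated Col, 50 in untreated coi1-2, and 1 and 0 reads with Al. Its level in coi1-2 was at least 16.2-fold lower with Al when 0 reads are set to the floor of 3 reads per library, and its log2 fold change was -5.67 ± 0.83 (SE), edgeR adjusted p = 2.17e-09. LTPG2 (AT3G43720) was near the filter at 0.645, 2.36, 0.170 and 1.92 RPKM in untreated Col, Al-treated Col, untreated coi1-2 and Al-treated coi1-2. Its log2 fold change of 2.88 ± 0.75 (SE), edgeR adjusted p = 0.000618 rested on 29 reads in all and was lost without Al-treated Col (edgeR adjusted p = 0.0661) without untreated coi1-2 (0.134) or with DESeq2 (0.0802). AT3G58550 stood at 123 RPKM in untreated Col, 162 in Al-treated Col, 200.3 in untreated coi1-2 and 192 in Al-treated coi1-2, and its call (log2 fold change 0.68 ± 0.29 (SE), edgeR adjusted p = 0.0375) turned to -0.06 with the length offset and was lost without any of 3 libraries (untreated Col 0.681, Al-treated Col 0.0586, untreated coi1-2 0.163). Of the others in the class, AT1G62790 and AT2G27130 rose by 2.26 ± 0.31 and 1.76 ± 0.36 (SE) on the log2 scale, and AT4G12360 and AT1G18280 did not pass. LTPG6 (AT1G55260) and XYP1 (AT5G64080), a xylogen-type arabinogalactan protein, had no more than 2 reads in any library. XYP2 (AT2G13820), its relative, stood at 43.8 RPKM in untreated Col, 35.6 in Al-treated Col, 37.3 in untreated coi1-2 and 24.0 in Al-treated coi1-2 and did not pass the test (log2 fold change 0.06 ± 0.30 (SE), edgeR adjusted p = 0.889).

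**Figure D3:**
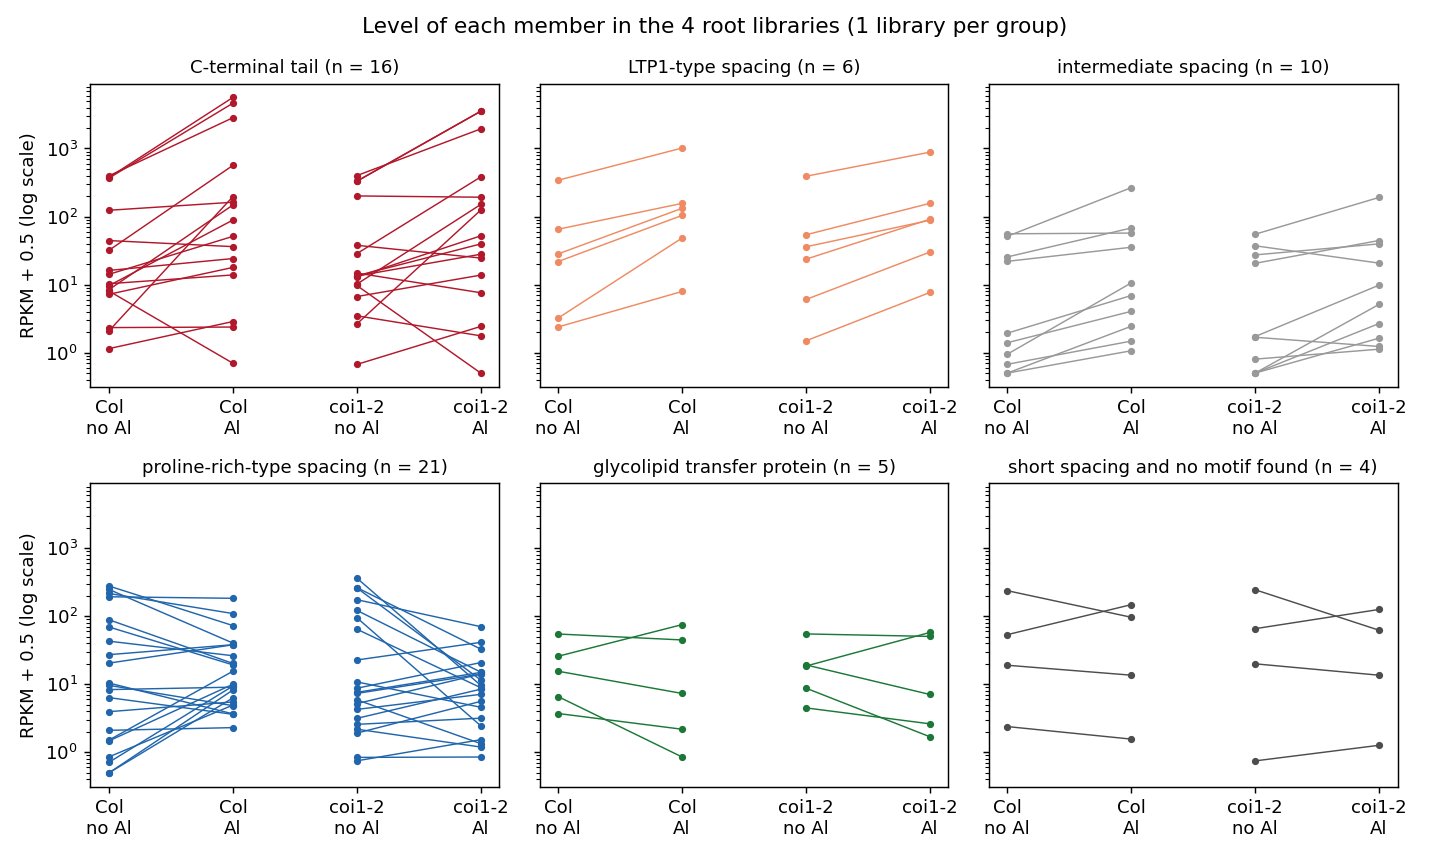
Level of each of the 62 members past the filter (RPKM + 0.5, log axis) in the 4 libraries, in 6 panels by class, with a line joining the library without Al to that with Al of the same genotype. All lines of the LTP1-gap panel climb in both genotypes, and the highest proline-rich-type lines descend, to lower levels in coi1-2 than in Col.

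All 6 members with the LTP1 gap that passed the filter rose with Al, at a median log2 fold change of 2.46 (1.71 with the length offset), and none of these calls was lost with a library left out. AT2G18370 was the most abundant of them, at 341 RPKM in untreated Col, 1016 in Al-treated Col, 390.3 in untreated coi1-2 and 883 in Al-treated coi1-2. It was already high without Al and rose in both genotypes (log2 fold change 1.89 ± 0.31 (SE), edgeR adjusted p = 8.98e-08). LTP2, known in seedlings for a part in the cuticle, stood at 27.7 RPKM in untreated Col, 132 in Al-treated Col, 35.4 in untreated coi1-2 and 87.6 in Al-treated coi1-2 and its log2 fold change was 2.29 ± 0.30 (SE), edgeR adjusted p = 6.29e-11. LTP1 (AT2G38540), which lies next to LTP2 in tandem, stood at 2.72 RPKM in untreated Col, 47.8 in Al-treated Col, 5.53 in untreated coi1-2 and 29.5 in Al-treated coi1-2. Its lowest library was untreated Col and its highest Al-treated Col, with a log2 fold change of 3.72 ± 0.37 (SE), edgeR adjusted p = 9.27e-17, or 3.22 to 4.36 with a library left out. LTP5 (AT3G51600), known for a part in pollen tube growth, stood at 21.3 RPKM in untreated Col, 103 in Al-treated Col, 23.1 in untreated coi1-2 and 90.8 in Al-treated coi1-2 (log2 fold change 2.64 ± 0.30 (SE), edgeR adjusted p = 9.18e-14). LTP3 (AT5G59320) was low throughout, at 1.88 RPKM in untreated Col, 7.42 in Al-treated Col, 0.989 in untreated coi1-2 and 7.14 in Al-treated coi1-2, with a log2 fold change of 2.86 ± 0.51 (SE), edgeR adjusted p = 7.86e-07. AT5G01870 stood at 64.6 RPKM in untreated Col, 156 in Al-treated Col, 53.4 in untreated coi1-2 and 156 in Al-treated coi1-2 (log2 fold change 1.92 ± 0.29 (SE), edgeR adjusted p = 6.2e-09). LTP6 (AT3G08770) and LTP7 (AT2G15050) had no more than 1 read in any library.

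Among the intermediate members 5 of the 6 tested rose and none fell. AT5G05960 stood at 50.8 RPKM in untreated Col, 265 in Al-treated Col, 54.4 in untreated coi1-2 and 190.3 in Al-treated coi1-2 (log2 fold change 2.61 ± 0.30 (SE), edgeR adjusted p = 1.91e-13). AT2G37870 went from 2 reads in untreated Col and 0 in untreated coi1-2 to 40 and 19 with Al. In coi1-2 that is at least 6.53-fold higher against the floor of 3 reads per library, and the log2 fold change was 5.43 ± 0.74 (SE), edgeR adjusted p = 2.21e-10, or 4.47 to 8.17 with a library left out. AT4G33550 stood at 1.43 RPKM in untreated Col, 6.40 in Al-treated Col, 1.22 in untreated coi1-2 and 9.30 in Al-treated coi1-2 (log2 fold change 3.01 ± 0.55 (SE), edgeR adjusted p = 1.12e-06). AT3G53980 stood at 21.4 RPKM in untreated Col, 34.9 in Al-treated Col, 20.03 in untreated coi1-2 and 43.9 in Al-treated coi1-2; its rise (log2 fold change 1.43 ± 0.31 (SE), edgeR adjusted p = 4.26e-05) was lost without untreated coi1-2 (0.0619). AT3G22570, in the same neighbourhood as AT3G22600 but with a different pattern, stood at 55.2 RPKM in untreated Col, 56.6 in Al-treated Col, 36.7 in untreated coi1-2 and 20.2 in Al-treated coi1-2 and did not pass the Al test (log2 fold change 0.13 ± 0.30 (SE), edgeR adjusted p = 0.744); with the length offset it was lower by the adjusted p (0.0232). DIR1 (AT5G48485), a carrier needed for systemic acquired resistance, had 4, 14, 5 and 3 reads in untreated Col, Al-treated Col, untreated coi1-2 and Al-treated coi1-2. It was highest in Al-treated Col and had too few reads for the test, as did AT5G48490, AT5G55450 and AT5G55460, with 0 to 8 reads per library. Of the short-gap members, AT3G18280 rose from 53.2 RPKM in untreated Col and 65.2 in untreated coi1-2 to 148 and 125.5 with Al (log2 fold change 1.72 ± 0.29 (SE), edgeR adjusted p = 1.92e-07), whereas AT1G73780 stood at 13.1 to 19.5 RPKM in all libraries and did not pass the test (log2 fold change -0.02 ± 0.41 (SE), edgeR adjusted p = 0.966); with the length offset it was lower (log2 fold change -1.05, adjusted p = 0.0189).

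The proline-rich-type class split: 8 of the 20 tested members rose with Al and 7 fell (7 and 9 with the length offset). The members that fell included the most abundant of the class. AT4G12520 stood at 278 RPKM in untreated Col, 72.5 in Al-treated Col, 364 in untreated coi1-2 and 9.16 in Al-treated coi1-2. It was lower with Al in both genotypes, and lowest in Al-treated coi1-2. Its log2 fold change was -2.95 ± 0.37 (SE), edgeR adjusted p = 1e-11, between -4.75 without Al-treated Col and -1.46 without Al-treated coi1-2. AT4G12510 stood at 69.1 RPKM in untreated Col, 18.8 in Al-treated Col, 94.9 in untreated coi1-2 and 1.96 in Al-treated coi1-2 and followed the same order (log2 fold change -2.72 ± 0.38 (SE), edgeR adjusted p = 4e-10; -4.99 without Al-treated Col and -1.44 without Al-treated coi1-2). Their coding sequences were identical at 388 of 390 bases (99.5%), with only T372C and T375C between them (AT4G12510 base, position counted from 1 at the start codon, AT4G12520 base), and the proteins were 100% identical. How unique reads were divided between such copies was not tested, so the values of both are uncertain singly. With DESeq2 in place of edgeR neither fall passed (adjusted p = 0.0817 for AT4G12520 and 0.0974 for AT4G12510).

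A second close pair on chromosome 5 moved in the same direction. AT5G46900 stood at 247 RPKM in untreated Col, 39.9 in Al-treated Col, 261 in untreated coi1-2 and 11.1 in Al-treated coi1-2. The Al libraries were below both others, with a log2 fold change of -3.01 ± 0.33 (SE), edgeR adjusted p = 1.59e-14, or -4.14 without Al-treated Col and -1.99 without Al-treated coi1-2. AT5G46890, whose coding sequence is 97.4% identical, stood at 216 RPKM in untreated Col, 109 in Al-treated Col, 264 in untreated coi1-2 and 32.5 in Al-treated coi1-2. Its fall (log2 fold change -1.45 ± 0.32 (SE), edgeR adjusted p = 5.63e-05) was lost without untreated coi1-2 (edgeR adjusted p = 0.123) and without Al-treated coi1-2 (0.0775), and with DESeq2 (0.279). AT4G12545 stood at 42.5 RPKM in untreated Col, 25.8 in Al-treated Col, 64.1 in untreated coi1-2 and 8.42 in Al-treated coi1-2, with a log2 fold change of -1.23 ± 0.34 (SE), edgeR adjusted p = 0.00123 that was lost without untreated coi1-2 (0.321), without Al-treated coi1-2 (0.282) and with DESeq2 (0.0540). AT4G15160 stood at 88.3 RPKM in untreated Col, 19.8 in Al-treated Col, 122 in untreated coi1-2 and 14.6 in Al-treated coi1-2. It fell to a similar level in both genotypes (log2 fold change -2.09 ± 0.30 (SE), edgeR adjusted p = 1.63e-09). AT2G45180 stood at 193 RPKM in untreated Col, 183 in Al-treated Col, 175 in untreated coi1-2 and 69.9 in Al-treated coi1-2, so that 3 libraries were alike and Al-treated coi1-2 was low, and it did not pass the test over both genotypes (log2 fold change -0.17 ± 0.30 (SE), edgeR adjusted p = 0.644); with the length offset it was lower (adjusted p = 0.000943).

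The proline-rich-type members that rose were of low or moderate level. EARLI1 (AT4G12480), first isolated as an early Al-induced gene of this species, stood at 20 RPKM in untreated Col, 37.6 in Al-treated Col, 8.25 in untreated coi1-2 and 20.4 in Al-treated coi1-2. In both genotypes the Al library was the higher, and untreated coi1-2 was the lowest. Its log2 fold change was 1.62 ± 0.31 (SE), edgeR adjusted p = 5.12e-06, and the call was lost without Al-treated Col (adjusted p = 0.0929) and without untreated coi1-2 (0.142). AT1G62510 stood at 26.8 RPKM in untreated Col, 37.7 in Al-treated Col, 22.3 in untreated coi1-2 and 40.9 in Al-treated coi1-2 (log2 fold change 1.198 ± 0.29 (SE), edgeR adjusted p = 0.000312; lost without untreated Col, 0.0592, and without untreated coi1-2, 0.145). The other 6 that rose lie side by side on chromosome 4 (AT4G22485, AT4G22490, AT4G22505, AT4G22513, AT4G22517 and AT4G22520). AT4G22490 stood at 1.02 RPKM in untreated Col, 15.1 in Al-treated Col, 4.70 in untreated coi1-2 and 13.7 in Al-treated coi1-2. It was lowest in untreated Col, and its log2 fold change was 2.92 ± 0.44 (SE), edgeR adjusted p = 7.52e-09, between 2.13 without untreated Col and 4.29 without untreated coi1-2. AT4G22513 had 0 reads in untreated Col, 30 in Al-treated Col, 11 in untreated coi1-2 and 32 in Al-treated coi1-2. Against the floor of 3 reads it was at least 11.3-fold higher with Al in Col, and its log2 fold change was 3.16 ± 0.57 (SE), edgeR adjusted p = 8.96e-07 (2.07 without untreated Col, 8.22 without untreated coi1-2). AT4G22517, 95.7% identical to it in coding sequence, had 0, 23, 6 and 21 reads in the same order (2.44 without untreated Col, 7.73 without untreated coi1-2). Without untreated Col, the calls of AT4G22485 (0.0867), AT4G22505 (0.1003) and AT4G22520 (0.399) were lost; AT4G22505 was also lost without Al-treated coi1-2 (0.0550), and AT4G22520 without Al-treated Col (0.0791), without Al-treated coi1-2 (0.136) and with the length offset (0.139). With DESeq2 the calls of AT4G22505, AT4G22513 and AT4G22520 were lost (0.0908, 0.141 and 0.139).

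Of the 5 glycolipid transfer proteins 1 rose with Al and 2 fell. ACD11 (AT2G34690), a sphingolipid transfer protein whose loss triggers cell death, stood at 54.4 RPKM in untreated Col, 44.4 in Al-treated Col, 54.5 in untreated coi1-2 and 50.1 in Al-treated coi1-2 and did not pass the test (log2 fold change 0.31 ± 0.28 (SE), edgeR adjusted p = 0.363). AT4G39670 rose, from 25.4 RPKM in untreated Col and 18.04 in untreated coi1-2 to 74.85 and 57.35 with Al (log2 fold change 2.13 ± 0.30 (SE), edgeR adjusted p = 4.32e-10). GLTP3 (AT3G21260) stood at 6.09 RPKM in untreated Col, 0.355 in Al-treated Col, 8.28 in untreated coi1-2 and 1.195 in Al-treated coi1-2. It fell in both genotypes (log2 fold change -2.73 ± 0.56 (SE), edgeR adjusted p = 1.83e-05; -3.59 without Al-treated coi1-2). GLTP2 (AT1G21360) stood at 15.1 RPKM in untreated Col, 6.84 in Al-treated Col, 18.8 in untreated coi1-2 and 6.59 in Al-treated coi1-2; its fall (log2 fold change -0.81 ± 0.34 (SE), edgeR adjusted p = 0.0345) was lost without untreated Col (0.174), without untreated coi1-2 (0.409) without Al-treated coi1-2 (0.0952) and with DESeq2 (0.219). GLTP1 (AT2G33470) lay between 1.685 and 4.002 RPKM and did not pass. AT4G22460, which has 8 cysteines but not the pattern, stood at 237 RPKM in untreated Col, 96.2 in Al-treated Col, 245 in untreated coi1-2 and 61.9 in Al-treated coi1-2 and fell (log2 fold change -1.12 ± 0.29 (SE), edgeR adjusted p = 0.000581; lost without untreated Col, 0.0898, and without untreated coi1-2, 0.112).

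The Al response was also read as 1 ratio per genotype. Calls in opposite directions were rare over all loci: of 17514, 5 were higher in Col and lower in coi1-2, and 1 the reverse. No member was among them. In Col 30 of the 62 members past the filter were called higher with Al and 9 lower, where 11.4% of all loci were called higher and 35.8% lower. In coi1-2 28 were called higher and 13 lower, against 9.37% and 23.2% of all loci. The median log2 ratio of RPKM + 0.5 was 1.11 for the members and -0.59 for all loci in Col, and 0.94 and -0.32 in coi1-2. Because the median of all loci was below 0 in RPKM, the ratios were also scaled with TMM factors, which brought it to -0.01 and 0.00. On that scale 37 members were higher and 6 lower in Col (22.1% and 20.5% of all loci), and 32 were higher and 11 lower in coi1-2 (14.7% and 14.7%). With the length trend subtracted, 25 were higher and 11 lower in Col (15.6% and 15.5%), and 28 and 13 in coi1-2 (12.9% and 12.7%). Of the members called, 23 were higher in both genotypes, which is 76.7% of the list in Col and 82.1% of the list in coi1-2; over all loci these shares were 61.7% and 75.2%. Lower in both were 9 members, 100% of the list in Col and 69.2% of that in coi1-2; over all loci these shares were 55.9% and 86.2%.

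**Figure D4:**
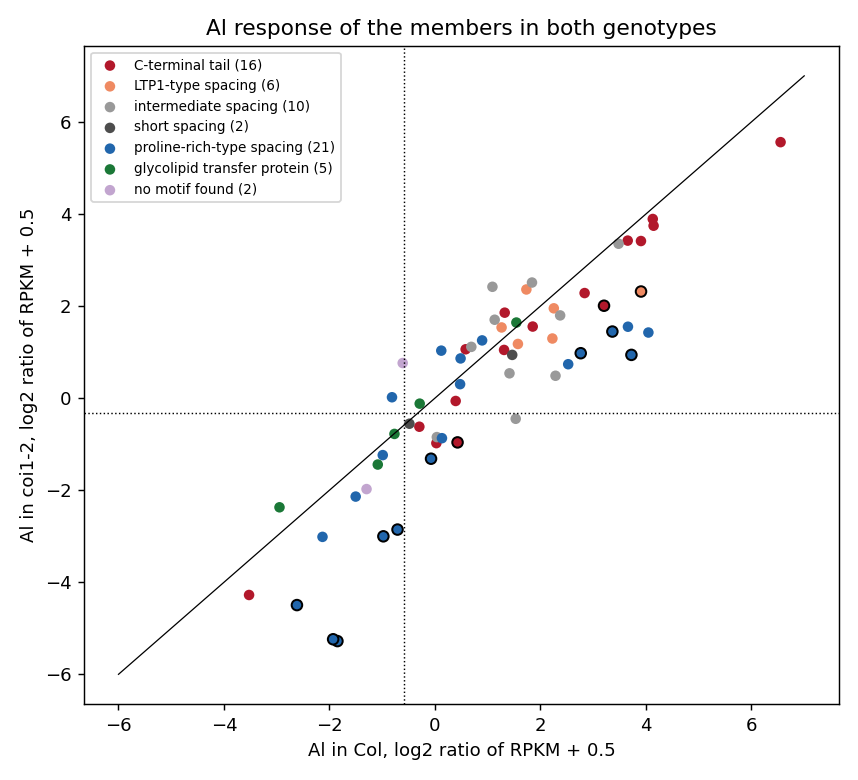
Log2 ratio of RPKM + 0.5 with against without Al of each of the 62 members past the filter, in coi1-2 (vertical) against Col (horizontal), coloured by class, with the diagonal of equal ratios, dotted lines at the median of all loci (-0.59 in Col, -0.32 in coi1-2) and black rims on the 12 members called below in the difference. AT4G12510 and AT4G12520 lie farthest below the diagonal, at -1.85 and -1.93 in Col and -5.28 and -5.24 in coi1-2.

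Without Al, the members called higher in coi1-2 than in Col all lay in 1 block on chromosome 4. Of the 62 members past the filter, 6 were called higher in coi1-2 (9.68%) and 4 lower (6.45%), against 1.43% and 1.34% of all loci. The members' median log2 ratio was 0.09. With TMM factors the counts were 6 and 4 (1.34% and 1.27%), and with the length trend subtracted 6 and 3 (1.43% and 1.3%). The 6 that were higher were the same neighbours named above, AT4G22485 to AT4G22520. AT4G22505 had 3 reads in Col and 91 in coi1-2 (0.215 and 6.85 RPKM). AT4G22485 had 15 and 104 reads (0.975 and 7.11 RPKM). In all 6 genes untreated coi1-2 stood between untreated Col and both Al libraries. AT4G22513 and AT4G22517 had 0 reads in untreated Col, and coi1-2 was at least 3.85-fold and at least 2.1-fold higher against the floor of 3 reads. The 4 that were lower in coi1-2 were AT4G22610, AT4G12490, EARLI1 and AT3G52130, the last with 8 reads in Col and 1 in coi1-2.

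Over both treatments edgeR called 2 members higher and 4 lower in coi1-2 (0.158% and 0.431% of all loci). AT4G22610, a proline-rich-type member, stood at 7.86 RPKM in untreated Col, 8.58 in Al-treated Col, 0.25 in untreated coi1-2 and 1.03 in Al-treated coi1-2. Both coi1-2 libraries were far below both Col libraries, with 1 and 4 reads against 33 and 32 (log2 fold change -3.82 ± 0.63 (SE), edgeR adjusted p = 8.68e-06). AT4G12490, a neighbour of EARLI1, stood at 5.87 RPKM in untreated Col, 3.12 in Al-treated Col, 0.343 in untreated coi1-2 and 0.354 in Al-treated coi1-2, again with both coi1-2 libraries the lowest (log2 fold change -3.72 ± 0.68 (SE), edgeR adjusted p = 0.000138). These 2 calls also stood with the length offset and with DESeq2 size factors in edgeR; DESeq2 itself called no member in either direction (1 higher and 7 lower at an unadjusted p of 0.05). EARLI1 was lower in coi1-2 within each treatment (log2 fold change -1.23 ± 0.31 (SE), edgeR adjusted p = 0.025). AT3G22570 was also lower (log2 fold change -1.18 ± 0.30 (SE), edgeR adjusted p = 0.0279). AT4G22485 was higher (log2 fold change 1.301 ± 0.35 (SE), edgeR adjusted p = 0.047), as was AT4G22505 (log2 fold change 1.64 ± 0.39 (SE), edgeR adjusted p = 0.0129); with the length offset the last 4 calls were lost, which left 0 higher and 2 lower (0.146% and 0.376% of all loci). The gene next to EARLI1 on the chromosome is AZI1, a paralogue known from systemic acquired resistance, whose name in the files does not meet the rule. It stood at 87.8, 304.7, 34.6 and 239.9 RPKM in untreated Col, Al-treated Col, untreated coi1-2 and Al-treated coi1-2, the same order of libraries as in EARLI1.

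Under Al, no member was called higher in coi1-2 than in Col and 12 were called lower, where 7.87% of all loci were higher and 1.87% lower. The median log2 ratio was -0.41 for the members and 0.26 for all loci. With TMM factors 17 were lower and 0 higher (4.65% and 3.04% of all loci), and with the length trend subtracted 11 were lower and 0 higher (1.94% and 1.96%). Of the 12, 9 were of the proline-rich type. The difference between both Al responses (coi1-2 minus Col) gave 12 members below and 0 above (1.91% and 7.01% of all loci), 17 and 0 with TMM factors (4.31% and 2.73%) and 12 and 0 with the length trend subtracted (2.39% and 1.94%). Its median was -0.47 for the members and 0.25 for all loci. With 1 library per group no interaction term can be fitted, so that the intervals of the difference cover counting error only.

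The widest called differences were those of AT4G12510 and AT4G12520, which fell with Al in both genotypes. The Al response of AT4G12510 was -1.85 (95% interval -2.26 to -1.51) in Col and -5.28 (95% interval -6.82 to -4.61) in coi1-2 on the log2 scale, a difference of -3.43 (95% interval -4.47 to -2.38). For AT4G12520 the difference was -3.31 (95% interval -3.76 to -2.85), for AT4G12545 -2.15 (95% interval -2.72 to -1.57) and for AT5G46890 -2.02 (95% interval -2.32 to -1.73). In each of these untreated coi1-2 was above untreated Col, and Al-treated coi1-2 was the lowest library. AT5G46900 differed by -1.88 (95% interval -2.32 to -1.44) and AT2G45180 by -1.24 (95% interval -1.46 to -1.02). In AT4G22485, AT4G22490 and AT4G22505 the difference (-1.79, -1.92 and -2.79) came with a higher level in untreated coi1-2, and their levels under Al were not called different between the genotypes. EDA4 differed by -1.20 (95% interval -1.72 to -0.68), LTP1 by -1.59 (95% interval -2.53 to -0.66) and AT4G12360 by -1.39 (95% interval -2.14 to -0.64). In the 3 most abundant members of the tail class Al-treated coi1-2 was below Al-treated Col, but the difference of responses was -0.49 for AT3G22600, -0.23 for AT3G22620 and -0.55 for AT2G48130, inside the 2-fold limit. The comparisons of both genotypes with Al and of both responses share libraries, so their counts are not separate observations.

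Members lie in clusters on the chromosomes, and neighbours did not always move together. With starts at most 15 kb apart, 4 blocks of at least 3 members were found, 1 on chromosome 3 and 3 on chromosome 4. In the EARLI1 block (AT4G12480 to AT4G12545, 7 members), EARLI1 rose with Al over both genotypes, and AT4G12510, AT4G12520 and AT4G12545 fell. Of these, EARLI1 and AT4G12545 were called in coi1-2 and not in Col (log2 ratios in Col 0.89 and -0.71). AT4G12490 and AT4G12500 did not pass the test, and AT4G12530 had 1 read in all. In the block AT4G22460 to AT4G22520 (8 members), AT4G22460 and AT4G22470 fell with Al over both genotypes and the other 6 rose. Of those 6, AT4G22485, AT4G22505 and AT4G22520 were called higher in Col and not in coi1-2 (log2 ratios in coi1-2 0.98, 0.94 and 0.74). The call of AT4G22460 was lost without untreated Col (log2 fold change -1.08) and without untreated coi1-2 (-1.04). The call of AT4G22470 (log2 fold change -1.49 ± 0.41 (SE), edgeR adjusted p = 0.00141) was lost without untreated Col (log2 fold change -0.86) and without Al-treated coi1-2 (-0.59). With DESeq2 it was lost too (adjusted p = 0.0630). In the block AT4G22610 to AT4G22666 (4 members), AT4G22640 rose from 24.98 RPKM in untreated Col and 26.8 in untreated coi1-2 to 67.3 and 39.1 with Al, AT4G22666 fell, AT4G22610 did not pass and AT4G22650 had no more than 2 reads in a library. On chromosome 3, AT3G22600 and AT3G22620 rose together and AT3G22570 did not pass. The files keep no strand, so reads of overlapping genes on opposite strands cannot be told apart.

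**Figure D5:**
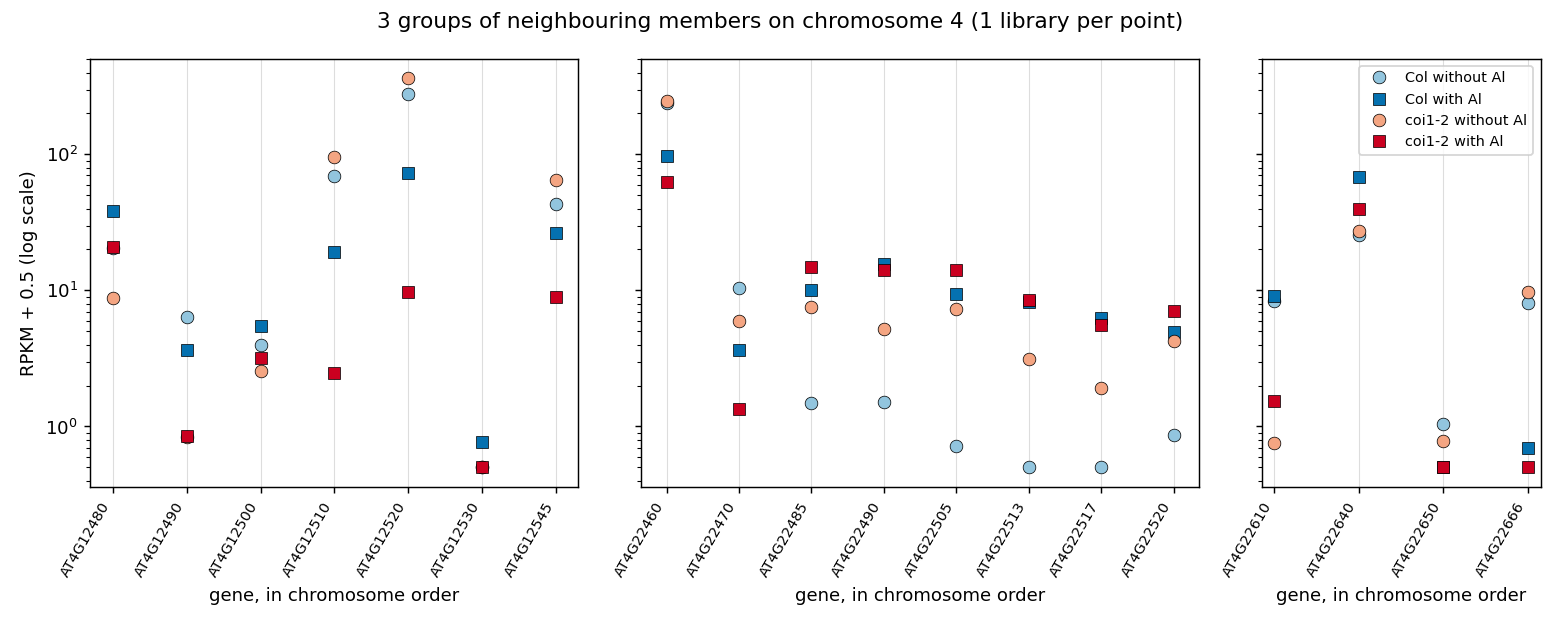
Level (RPKM + 0.5, log axis) of the members of the 3 blocks on chromosome 4 in gene order, with circles for libraries without Al, squares for those with Al, blue for Col and red for coi1-2. For the 6 genes from AT4G22485 to AT4G22520 the untreated Col library is the lowest of the 4, while AT4G12510, AT4G12520 and AT4G12545 are lowest in Al-treated coi1-2.

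Promoter windows from 250 bases before to 50 after each annotated start (RefSeq TAIR10.1, 27443 genes) were searched on both strands. TTGAC was in 40 of the 80 members' windows (50.5% of all windows), ACGT in 44 (49.9% of all windows) and CACGTG, which contains ACGT, in 2 (7.7% of all windows), those of AT1G73780 and AT4G14805. These are matches of letters in a window and say nothing of binding.

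Genes of the pathways in which lipid-transfer proteins are known were read beside them. Of 13 suberin synthesis and export genes, all tested, 12 rose with Al and none fell (median log2 fold change 1.67; 13 rose with the length offset). ABCG6, a half-size transporter of suberin precursors, rose by 3.40 ± 0.33 (SE) with an edgeR adjusted p of 2.05e-17, and GPAT5, an acyltransferase of suberin synthesis, by 2.23 ± 0.30 (SE) with an edgeR adjusted p of 8.11e-11. Of 6 cutin and wax genes 4 were tested, with 1 higher and 1 lower (2 and 0 with the length offset). Of 14 genes of systemic acquired resistance 10 were tested, with 3 higher and 1 lower (7 and 0 with the length offset). In RPKM their summed level moved in opposite directions, from 175 to 132 with Al in Col and from 163 to 268 in coi1-2. The median log2 ratio of all loci with Al was itself -0.59 in Col and -0.32 in coi1-2. PAD4, a regulator of defence signalling, stood at 63.8 RPKM in untreated Col, 42.9 in Al-treated Col, 57.0 in untreated coi1-2 and 98.6 in Al-treated coi1-2. SARD1, a transcription factor of salicylic acid synthesis, stood at 7.89, 5.04, 6.46 and 15.96 RPKM in the same order. In RPKM both were lower with Al in Col and higher in coi1-2. Their log2 ratios in Col, -0.57 for PAD4 and -0.60 for SARD1, were close to the median of all loci. With FMO1, FAD7 and SID2 they were the 5 of the list called above in the difference of responses. Over all loci 7.01% were called above (2.73% with TMM factors). FAD7 was lower with Al in both genotypes, from 27.3 to 7.27 RPKM in Col and from 23.2 to 14.3 in coi1-2. The difference of responses has no test across libraries. The 3 genes of the list that rose over both genotypes were FMO1, CBP60G and SARD1. FMO1, which makes the mobile signal N-hydroxypipecolic acid, rose by 2.73 ± 0.31 (SE), edgeR adjusted p = 1.36e-13. CBP60G rose by 1.82 ± 0.46 (SE), edgeR adjusted p = 0.000451, and SARD1 by 0.88 ± 0.33 (SE), edgeR adjusted p = 0.0204. PAD4 did not pass (log2 fold change 0.63 ± 0.29 (SE), edgeR adjusted p = 0.0597) but did with the length offset (0.98, adjusted p = 0.000438).

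Cell-type markers, which were read to see which tissues the libraries hold, moved with Al in the same libraries. The summed level of the 8 endodermis markers was 885 and 927 RPKM in untreated Col and coi1-2 and 110 and 182 with Al, and 6 of the 7 tested fell. The 7 root hair markers summed to 1017 and 1060 RPKM untreated and 534 and 302 with Al, and 5 fell. The 5 root cap markers summed to 48.3 and 46.9 RPKM untreated and 13.6 and 15.1 with Al, and 2 of the 4 tested fell. The light-harvesting and Rubisco genes of green shoot tissue summed to 68.2 and 93.1 RPKM in untreated Col and coi1-2 and 450 and 294 with Al, and all 7 tested of 8 rose. Of the 7 seed storage genes 1 was listed, at 0 reads in both Al libraries. Of 5 markers of dividing cells 1 rose and 3 fell (0 and 3 with the length offset). The part of these shifts in the changes of the lipid-transfer-like genes was not tested.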

How the data were processed

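Root RNA of 4 groups with 1 library each was sequenced after poly(A) selection and random priming. Per the file headers, the deposited tables give uniquely mapped read counts per transcript, transcript length, percent coverage of the transcript by reads, and RPKM values made by the authors from those counts, length and the library total. The aligner was not given in the sources used here, nor was the genome build. The percent coverage was not used. Transcripts that a table did not list were set to 0 reads, and counts and RPKM were summed over the isoforms of a locus (12 members had more than 1), which unique mapping lowers. All 80 members matched the RefSeq TAIR10.1 gene table by locus code, 79 with a nearby position.

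Ratios were taken on log2(RPKM + 0.5) for loci that reached 1 RPKM in 1 library or more, and a member was called at 2-fold with a 95% exact interval of the read ratio that excluded no change; the difference of responses was called at 1 log2 unit with a normal-approximation interval from reads + 0.5. Across libraries, edgeR 4.0.16 (R 4.3.3) tested the counts with its default expression filter, full library totals, TMM factors and the quasi-likelihood test, adjusted over all 16477 loci. The edgeR test of Al was tried on simulated counts that held no genotype effect. Alternatives were pseudocounts of 0.1 and 1, no filter or 5 RPKM, TMM and length scaling, DESeq2 1.42.0 and its size factors, limma-trend 3.58.1, the genotype term dropped and each library left out.

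Named members were the called members with the most extreme ratios per comparison and the strongest edgeR calls. The most abundant 12 and every member of a block of neighbours were named too. A fixed list, with LTP1, LTP2, LTP3, LTP5, LTP6, DIR1, EARLI1, LTPG2 and LTPG6 in it, was always named. AT1G18280, AT1G62510, AT1G62790, AT1G73780, AT2G13820, AT2G27130, AT2G33470, AT2G34690, AT2G44300, AT3G18280, AT3G53980, AT4G14805, AT4G39670, AT5G01870, AT5G48490, AT5G55450, AT5G64080, AT2G15050 and AT5G59330 were named outside these rules after their values were seen. Genes of the other lists were to be named by the size of their edgeR fold change with Al, and PAD4 and FAD7 were named outside that rule. The members and gene lists were chosen with earlier results of these data known, and the motif classes were set after values were seen. The motif was searched in proteins translated from RefSeq coding sequences, where a protein table had been planned.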

Additional observations from a re-analysis of the deposited data

How the results depend on the processing

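Every count of called members in the pairwise comparisons and in the difference of responses stayed within 1.5 times its value under the pseudocounts, filters, TMM factors and length trend. With edgeR, the 11 members lower with Al became 5 with DESeq2 and 7 with the genotype term dropped, and 7 to 14 with a library left out, where 27 to 36 were higher. For genotype, the 2 members higher in coi1-2 became 0 with DESeq2 size factors, 0 with the length offset and 0 with DESeq2 (2, 4 and 1 at an unadjusted p of 0.05), and the 4 lower became 2, 2 and 0 (12, 8 and 7 unadjusted). Of the members called for Al, DESeq2 lost 11 and the fit without a genotype term 7 (AT1G21360, AT3G58550, AT4G12545, AT4G22470, AT4G22505, AT4G22520 and AT5G46890). AT3G58550 turned from 0.68 to -0.06 with the length offset. The causes were not tested. A leave-one-library fit has 1 library in an arm, which is assumed to vary like the other arm, and none was run for genotype. No paired analysis was possible because the labels give the groups no shared replicate numbers; the genotype term of the edgeR model does compare the Al libraries within each genotype, and without it 30 members were higher and 7 lower. At this depth, members below 1 RPKM rest on few reads and their changes were not detectable.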
